A study of Mus musculus with 13 samples.

Results

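TRAV17, TRAV18, TRAV19 and TRAV20 are 4 single-copy V genes at the J side of the mouse T cell receptor (TCR) α locus, and every clonotype of the 13 samples that carried one of them by name was taken. These were 1710 of 90369 clonotypes (1.89%), of which TRAV17 held 849, TRAV19 held 806, TRAV18 held 29 and TRAV20 held 26. Each clonotype is 1 combination of V, J and CDR3 bases within 1 sample, and CDR3 is the hypervariable stretch in which V, inserted bases and J meet. The α chains came from rescued regulatory T (Treg) cells of spleen and lymph node, sorted as TCRβ+CD4+GFP+Thy1.1- cells from male C57BL/6 mice of the genotype Foxp3LSL/y Cd4creERT2. In these mice Foxp3 was silent until 4-hydroxytamoxifen (4-OHT), given to all of them at postnatal day 14, switched on the Cre recombinase that is made wherever Cd4 is active. Cells were taken 1.5 months later at an age of 8 weeks (n = 2), 3 months later at 3.5 months (n = 4), 5 months later at 5.5 months (n = 2) and 7 months later at 7.5 months (n = 5). There was no group without 4-OHT, and Cre driven by Cd4 is active in CD4-expressing T cells beyond the Treg lineage. The labels do not say that replicates were separate mice, so p-values measure the spread between these samples only.

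Rearrangement of the α locus joins a V gene to a J gene and deletes the DNA between them. A first join tends to use V genes at the J side with J genes at the 5' end of the J cluster, and the same chromosome can then recombine again, reaching outward to more distant V genes and inward to J genes further 3'. A join in the wrong reading frame, called non-functional, gives no chain and leaves its transcript as a record of rearrangement without selection of the protein.

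The GENCODE annotation of GRCm38 placed all 4 genes on the plus strand of chromosome 14, each with 2 exons. TRAV17 lay at chr14:53806639-53807115, TRAV18 at chr14:53831105-53831827, TRAV19 at chr14:53845234-53845827 and TRAV20 at chr14:53863110-53863661. From the end of the gene to TRAJ61, the first annotated J gene at chr14:54155005-54155076, the distance was 347.9 kb for TRAV17, 323.2 kb for TRAV18, 309.2 kb for TRAV19 and 291.3 kb for TRAV20. They were not the nearest V genes to J, since 3 more were annotated between TRAV20 and TRAJ61. Of these, TRAV21/DV12, which can also be used by the δ chain, stood at chr14:53875984-53876752 and held 973 clonotypes, TRAV23 held 6 and the pseudogene TRAV22 held 0. GENCODE also lists TRAV20 as a pseudogene. Functional, used of a clonotype here, refers to the reading frame of its CDR3 alone, for TRAV20 too. The germline V bases that enter the CDR3 are shown because they fix its first residues. They are the ends of the GENCODE transcripts, with the codon of the conserved cysteine in capitals.
TRAV17: TGTgcactggaggg
TRAV18: TGTacaggaa
TRAV19: TGCgcagcaggtg
TRAV20: TGTgcaccaggca
TRAV21/DV12: TGTatcctgagagtag
The end was kept whole in 48.3% of 793 functional TRAV17 clonotypes, 63.0% of 27 for TRAV18, 35.2% of 679 for TRAV19, 21.4% of 14 for TRAV20 and 30.2% of 880 for TRAV21/DV12. The mean number of germline bases kept was 12.2 of 14 for TRAV17 and 11.1 of 13 for TRAV19.

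The clonotypes with the highest share in any sample, and the CDR3 amino-acid sequences found in the most samples, show what these ends give after joining. Capitals mark the bases between the deposited V end and J start, lower case the bases given to V or J, and the J gene follows the V gene in the name. In both TRAV17 sequences the deposited V end lies 2 bases past the GENCODE end shown above (the cc after ggaggg).
TRAV17-TRAJ31, largest: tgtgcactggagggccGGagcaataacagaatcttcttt
TRAV17-TRAJ58, most samples: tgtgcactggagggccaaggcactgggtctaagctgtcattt
TRAV18-TRAJ50, largest: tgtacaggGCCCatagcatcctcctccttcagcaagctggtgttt
TRAV19-TRAJ56, largest: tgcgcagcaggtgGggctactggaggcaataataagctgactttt
TRAV19-TRAJ57, most samples: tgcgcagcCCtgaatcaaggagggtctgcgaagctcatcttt
TRAV20-TRAJ56, largest: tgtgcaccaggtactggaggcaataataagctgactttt
The largest TRAV17 clonotype (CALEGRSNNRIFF) had 1658 counts at 7 months replicate 5, or 0.312% of functional counts (95% Wilson interval 0.297 to 0.327), and its CDR3 was found in 3 samples. The largest TRAV19 clonotype had 1541 counts at 7 months replicate 4, or 0.323% (0.307 to 0.3396), and the same nucleotide sequence was present in 2 other samples with at most 181 counts. The largest TRAV18 clonotype had 550 counts at 7 months replicate 5 and 1 count in 1 other sample. The largest TRAV20 clonotype had 199 counts at 1.5 months replicate 1 and 2 counts in 1 other sample. Intervals cover counting error only.

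The TRAV17 CDR3 found in the most samples, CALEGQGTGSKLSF, was present in 11 of 13 samples, encoded by 5 nucleotide sequences. Its printed form holds 0 inserted bases by the deposited ends and 1 counted from the GENCODE end. Its share of functional counts ran from 1.76e-04% (1 count at 3 months replicate 4) to 0.0899% at 3 months replicate 2. The TRAV19 CDR3 found in the most samples, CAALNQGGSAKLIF, was present in 8 samples, encoded by 6 nucleotide sequences, with shares from 0.0185% to 0.0965%. It was found at every time point, as was the TRAV17 one.

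Each sample held between 509818 and 936831 counts, and functional counts, from clonotypes with neither a frameshift nor a stop in the CDR3, from 477052 to 882170. Rearrangements that mark other cells were rare. TRAV11 with TRAJ18, the mark of invariant NKT cells, took 0% to 0.126% of counts, and TRAV1 with TRAJ33, the mark of MAIT cells, 0% to 0.171%. TRDV with TRDJ, a join of the δ chain, took 0.0156% to 0.0739%. The source of these δ joins in cells sorted as TCRβ+ was not tested. Some libraries shared more nucleotide clonotypes than others. Over 78 pairs of libraries the median number of TRAV17 to TRAV20 clonotypes in common was 5, while 1.5 months replicate 1 and 3 months replicate 4 shared 26 (14.9% and 16.4% of theirs), and 3 months replicate 4 and 5 months replicate 1 shared 22 (13.8% and 17.5%). In all, 83 clonotypes of the 4 genes had a copy in a different library with 100 times their share of counts or more.

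TRAV17 and TRAV19 were present in every sample, and TRAV18 and TRAV20 were traces of the repertoire. TRAV17 took 1.01% ± 0.0884 (SD, n = 13) of functional clonotypes, with 45 to 88 clonotypes per sample, and TRAV19 took 0.864% ± 0.156 (SD, n = 13), with 33 to 72. TRAV18 reached at most 6 functional clonotypes in a sample and was present in 10 samples, and TRAV20 reached at most 3 and was present in 9. Presence here means at least 1 count, and some of it rested on no more than 1 count per clonotype, as for TRAV18 at 7 months replicate 3 and 7 months replicate 4 and for TRAV20 at 3 months replicate 1. In the samples without any, a count of 0 allows up to 3 counts, or 3.40e-04% to 6.29e-04% of functional counts, which is above those lowest values. The genes together took 1.93% ± 0.187 (SD, n = 13) of functional clonotypes and 2.00% ± 0.322 of functional counts.

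By time point, TRAV17 took 1.10% and 0.971% of functional clonotypes at 1.5 months, 0.873%, 0.911%, 1.03% and 1.08% at 3 months, 1.02% and 0.996% at 5 months, and 0.890%, 0.946%, 1.16%, 1.05% and 1.09% at 7 months. TRAV19 took 0.801% and 1.11% at 1.5 months, 0.831%, 0.718%, 0.540% and 0.887% at 3 months, 0.947% and 0.747% at 5 months, and 0.810%, 0.978%, 0.819%, 0.953% and 1.09% at 7 months. All time points overlapped for TRAV17 and for TRAV19. The lowest value of TRAV19 was 3 months replicate 3, with 33 functional clonotypes. By counts, TRAV17 took 0.848% ± 0.142 (SD, n = 4) at 3 months and 1.03% ± 0.187 (n = 5) at 7 months, and its highest sample was 5 months replicate 2 with 1.61%. TRAV19 took 0.767% ± 0.198 (SD, n = 4) of functional counts at 3 months and 1.07% ± 0.0825 (n = 5) at 7 months, with 1.35% at 1.5 months replicate 2 as its highest and 0.512% at 3 months replicate 3 as its lowest sample.

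**Figure D1:**
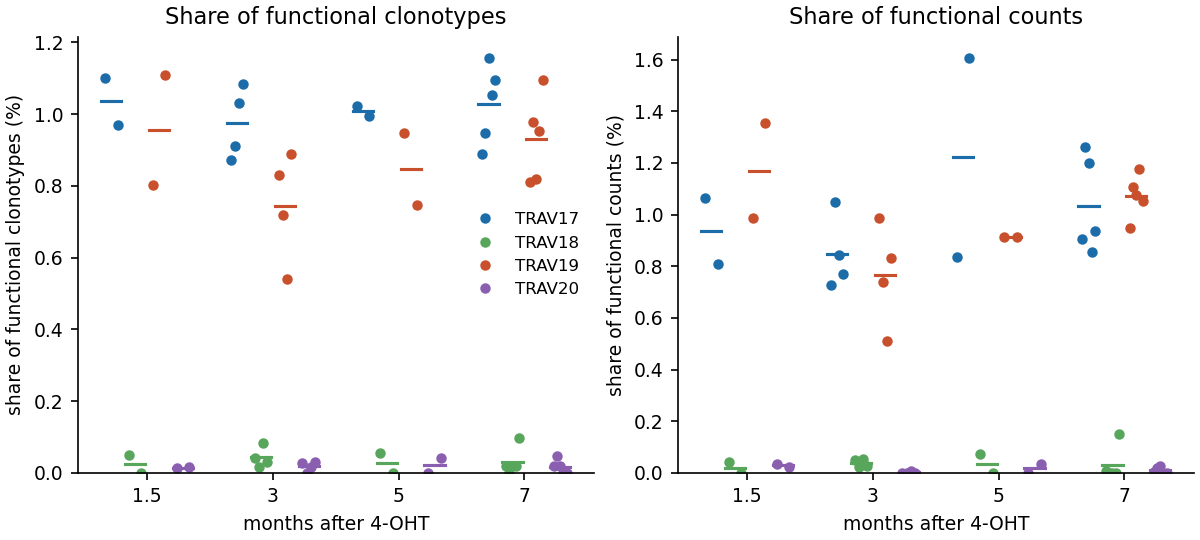
Share of functional clonotypes (left, %) and of functional counts (right, %) of each gene against months after 4-OHT, with 1 point per sample and a bar at the mean of the time point. TRAV17 and TRAV19 lie near 1% at every time point and TRAV18 and TRAV20 close to 0.

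The comparison of time points asked whether use of the genes shifted after Foxp3 was restored. edgeR's quasi-likelihood test on clonotype numbers called 0 of 90 V genes in each of 4 comparisons (0% called), with 10 (3 against 1.5 months), 8 (5 against 1.5), 6 (7 against 1.5) and 1 (7 against 3) at an unadjusted p under 0.05. DESeq2 also called 0, with 7, 6, 6 and 2 unadjusted. For TRAV17 the log2 fold changes were -0.11 ± 0.18 (SE), -0.06 ± 0.21, -0.04 ± 0.17 and 0.07 ± 0.14 in the same order. For TRAV19 they were -0.36 ± 0.21, -0.17 ± 0.26, -0.04 ± 0.20 and 0.32 ± 0.17, and the last of these, the one with the smallest p, had an edgeR adjusted p of 0.865. TRAV18 and TRAV20 had too few clonotypes to pass the filter. Without the filter the SE of their log2 fold changes was between 0.81 and 1.55, which leaves all but large shifts undetectable at these numbers.

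Against months over the 13 samples, the share of functional clonotypes had a Pearson r of 0.119 for TRAV17 (permutation p = 0.694, rho = 0.0805, p = 0.793) and 0.240 for TRAV19 (p = 0.432, rho = 0.250, p = 0.405), two-sided. The share of functional counts had an r of 0.296 for TRAV17 (permutation p = 0.341, rho = 0.406, p = 0.169) and 0.225 for TRAV19 (p = 0.4658, rho = 0.279, p = 0.352). None of the 4 genes passed after Benjamini-Hochberg adjustment over 104 V genes (smallest adjusted p 0.917 for r and 0.731 for rho), nor did any other V gene by r (0% called), with 5 genes for clonotypes and 4 for counts at an unadjusted p under 0.05. Both 1.5-month samples, the 2 farthest from the median month, were then left out. The r of TRAV19 was 0.587 for its share of clonotypes (permutation p = 0.0543) and 0.767 for its share of counts (p = 0.00249). That of TRAV17 was 0.274 (permutation p = 0.410) and 0.309 (p = 0.372), and none of these p were adjusted. Both r of TRAV19 were thus lower with those 2 samples than without them. A share of counts joins the number of cells and the RNA of each, which cannot be told apart here. The share of 5' J genes and the non-functional share had r between -0.0957 and 0.00651 for TRAV17 and TRAV19 (permutation p 0.755 to 0.983, with 0% of 93 and 1.06% of 94 V genes called).

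Non-functional clonotypes were few for TRAV17, varied between samples for TRAV19, and were nearly as many as functional ones for TRAV20. For TRAV17 they made up 6.50% ± 2.29 (SD, n = 13) of clonotypes, from 3.64% to 11.1% with a median of 6.25%, against 13.2% over all other V genes of the same samples. The difference was -6.67 ± 2.18 percentage points, lower in 13 of 13 samples (exact sign-flip permutation test over samples, two-sided, adjusted p = 9.98e-04 over 94 V genes). Of all V genes tested, 59.6% were called in this comparison, 33% lower and 26.6% higher. The TRAV17 difference was -3.59 points with counts as weights (adjusted p = 0.00104 by the same exact test). With the other V genes given equal weight it was -10.2 points (7.40e-04). For TRAV19 the share was 15.4% ± 4.99 (SD, n = 13), from 8.33% to 24.4% with a median of 17.7%, against 13.1%, higher in 8 of 13 samples (adjusted p = 0.153 by the same exact test). The highest of these samples were 3 months replicate 4 (24.4%), 3 months replicate 2 (19.6%) and 7 months replicate 3 (19.3%). TRAV17 was lower than TRAV19 in 12 of 13 samples, with a difference of -8.89 ± 5.86 percentage points (exact permutation p = 4.88e-04, adjusted p = 0.00195 over 20 pairwise tests). TRAV19 was also above TRAV21/DV12, by 5.89 ± 5.48 points (exact permutation test, adjusted p = 0.00570, 11 of 13 samples). TRAV21/DV12 itself stood below the rest, with a difference of -3.65 ± 4.18 points, in 12 of 13 samples (adjusted p = 0.0176 over 94 V genes), and TRAV17 minus TRAV21/DV12 was -3.01 ± 5.16 points (adjusted p = 0.114), passing without 5 months replicate 2 (-3.86, 0.0256) and at a minimum of 10 counts (-2.76, 0.0371).

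All 56 non-functional TRAV17 clonotypes were frameshifts, as were 124 of 127 for TRAV19, where the other 3 held an in-frame stop. TRAV18 had 2 of 29, both with 1 count. TRAV20, the pseudogene, had 12 of 26, all frameshifts, and its out-of-frame clonotypes had a median of 33.5 counts against 40.5 for the in-frame ones.

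The J use of the non-functional TRAV19 clonotypes was set beside that of non-functional clonotypes outside the 4. TRAJ32 was the most used J gene of non-functional TRAV19, with 26 of 127 (20.5%), against 16.3% outside the 4. TRAJ56 (21, 16.5%) and TRAJ57 (14, 11.0%) came next, against 0.938% and 0.662% outside the 4. Of the 28 TRAV19-TRAJ32 clonotypes 26 were non-functional, while over all V genes 49.8% of 3869 TRAJ32 clonotypes were. All but 1 of these 26 came in sets of 3 to 5 within a sample that differed only at a few bases inside the J segment. One of the 2 sets with 5 clonotypes, that of 5 months replicate 1, is shown in order of counts (128, 33, 24, 8 and 1), with the bases that vary in capitals.
TRAV19-TRAJ32 a: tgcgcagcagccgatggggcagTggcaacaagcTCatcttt
TRAV19-TRAJ32 b: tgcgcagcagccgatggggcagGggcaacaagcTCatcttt
TRAV19-TRAJ32 c: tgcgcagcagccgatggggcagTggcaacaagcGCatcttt
TRAV19-TRAJ32 d: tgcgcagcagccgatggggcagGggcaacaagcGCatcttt
TRAV19-TRAJ32 e: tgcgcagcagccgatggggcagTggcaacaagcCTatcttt
Clonotypes of 1 sample with the same V gene, J gene, CDR3 length and bases up to 3 bases into the J segment were therefore merged in an alternative added after the data were seen. The 26 became 7. Over all V genes 10.7% of clonotypes were merged away, 4.59% for TRAV17, 6.08% for TRAV19, 7.69% for TRAV20 and 0% for TRAV18. After merging, the non-functional share differed from the rest by -5.90 points for TRAV17 (adjusted p = 7.65e-04) and 1.25 points for TRAV19 (adjusted p = 0.379), both by the exact permutation test. With the other V genes reweighted to the gene's own J use, the differences were -4.47 points for TRAV17 (adjusted p = 9.18e-04) and 4.40 points for TRAV19 (adjusted p = 0.00907). With the other V genes given equal weight the TRAV19 difference was -1.20 points (adjusted p = 0.475), so its call depends on how J use is treated and its direction on how V genes are weighted. Whether sequencing errors made these sets was not tested.

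5' J genes, TRAJ41 and higher, made up most of the J use of TRAV17 and TRAV19. Among functional clonotypes they took 68.0% ± 5.94 (SD, n = 13) for TRAV17, from 55.2% to 77.8%, and 83.1% ± 4.96 for TRAV19, from 74.6% to 92.7%, against 18.3% over all other V genes for either comparison. Both were higher than the rest in 13 of 13 samples, by 49.7 ± 5.94 and 64.8 ± 5.28 percentage points (exact permutation test, adjusted p = 4.73e-04 for both over 93 V genes, of which 84.9% were called, 21.5% higher and 63.4% lower). By time point, TRAV17 had 71.6% and 68.3% at 1.5 months, 66.1%, 59.6%, 65.1% and 77.8% at 3 months, 69.1% and 70.8% at 5 months, and 68.9%, 66.7%, 75.4%, 69.8% and 55.2% at 7 months. TRAV19 had 78.1% and 81.9% at 1.5 months, 81.4%, 92.7%, 87.9% and 83.1% at 3 months, 80.4% and 83.3% at 5 months, and 85.4%, 87.1%, 86.96%, 77.1% and 74.6% at 7 months. The time points overlapped for both genes, and 7 months replicate 5 was the lowest sample of each. By level TRAV21/DV12 was 1st with 85.0% ± 4.00, TRAV19 was 2nd and TRAV17 was 5th of 93 V genes. TRAV17 stood below TRAV19 in 13 of 13 samples, with a difference of -15.04 ± 7.63 points, and below TRAV21/DV12 in 13 of 13, with a difference of -16.9 ± 8.05 points (exact permutation p = 2.44e-04 for each, the smallest that 13 samples allow, adjusted p = 0.00122). With the 5' class begun at TRAJ31, these differences were -7.04 and -7.74 points (adjusted p = 0.00488 and 0.00570 by the same test). Begun at TRAJ48, they were -16.5 and -18.0 points (0.00195 and 0.00163). TRAV19 minus TRAV21/DV12 was -1.90 ± 6.97 points, which is within the spread between samples (exact permutation p = 0.339). TRAV1 and TRAV2, the V genes farthest from J at 1726.13 and 1586.95 kb, had 0.831% ± 1.47 and 1.23% ± 2.70.

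**Figure D2:**
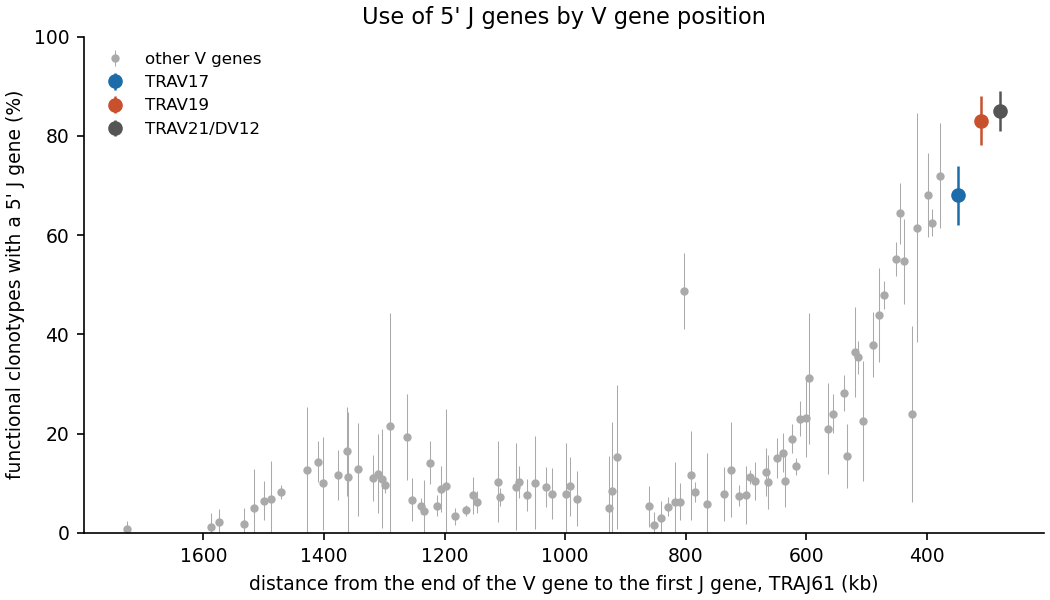
Share of functional clonotypes with a 5' J gene (%) against the distance from the V gene to TRAJ61 (kb, J side at the right) for 93 V genes, as mean and SD over samples. TRAV19 (83.1%) and TRAV21/DV12 (85.0%) lie at the upper right, with TRAV17 (68.0%) below them and near the V genes next to it.

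Among the V genes tested, the next ones further from J than TRAV17 differed among themselves. In order of distance they were TRAV3-4 (72.0% ± 10.6, 377.4 kb), TRAV14-3 (62.5% ± 2.72, 391.3 kb), TRAV13-4-DV7 (68.1% ± 8.49, 397.1 kb), TRAV8-2 (61.5% ± 23.1, n = 11, 416.2 kb) and TRAV13-3 (23.97% ± 17.7, 424.9 kb), as mean and SD over 13 samples but for TRAV8-2. The few clonotypes of the other members were counted over all samples. For TRAV18, 24 of 27 functional clonotypes used a 5' J gene, 3 a middle one (TRAJ21 to TRAJ40) and 0 a 3' one (TRAJ20 and lower). For TRAV20, 7 used a 5' and 7 a middle J gene. The 3' J genes took 5.04% of TRAV17 and 1.91% of TRAV19 functional clonotypes and 31.9% of those of all V genes outside the 4.

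The same lean was present in non-functional clonotypes. Their share with a 5' J gene was 73.7% ± 18.0 for TRAV17 over the 10 samples with at least 3 of them, and 63.8% ± 26.0 for TRAV19 over 13 samples, against 14.7% and 14.5% in the other V genes. All of these samples stood above the rest for both genes (exact permutation test, adjusted p = 0.00526 for TRAV17 and 0.00151 for TRAV19 over 62 V genes, of which 58.1% were called, 24.2% higher and 33.9% lower). The values rest on 3 to 7 non-functional clonotypes per sample for TRAV17 and 3 to 19 for TRAV19, and ran from 42.9% to 100% and from 20% to 100%. Within a gene, non-functional minus functional was 5.06 ± 20.03 points for TRAV17 (exact permutation p = 0.436). For TRAV19 it was -19.3 points (exact permutation p = 0.0222, adjusted p = 0.217, with 0 of 61 V genes called, 0%). The lowest TRAV19 samples, 3 months replicate 2 (20%), 7 months replicate 1 (33.3%) and 5 months replicate 1 (36.4%), were among those with the TRAJ32 sets, and the difference was -12.8 points with the sets merged and -6.72 points (n = 12) without TRAJ25, TRAJ32 and TRAJ41.

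**Figure D3:**
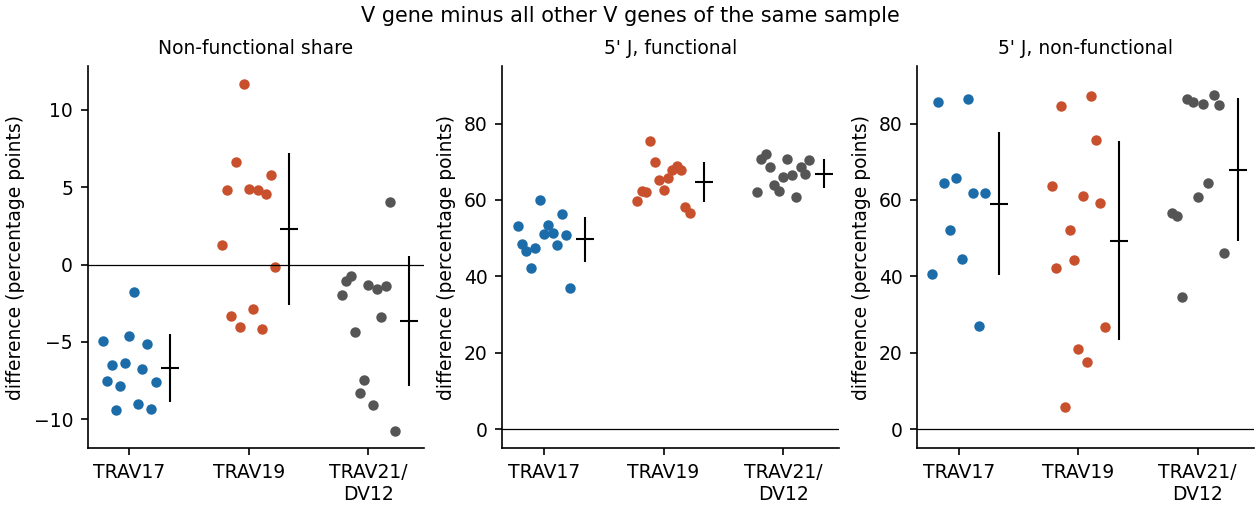
Difference of each V gene from all other V genes of the same sample, in percentage points, for the non-functional share (left), the 5' J share of functional clonotypes (middle) and of non-functional clonotypes (right), with 1 point per sample and a cross for the mean with SD. TRAV17 lies below 0 in all 13 samples at the left, and both 5' J panels lie above 0 for all 3 genes.

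At single J genes, the most used by TRAV17 were TRAJ57 (74 of 793, 9.33%), TRAJ56 (65, 8.20%) and TRAJ58 (59, 7.44%). TRAV19 used the same 3 in the same order with TRAJ57 at 18.4% (125 of 679), TRAJ56 at 15.9% (108) and TRAJ58 at 7.36% (50). In V genes outside the 4 these J genes took 1.25%, 1.34% and 0.715%. TRAV18 used TRAJ56 in 11 and TRAJ57 in 6 of its 27, and TRAV20 used TRAJ56 in 4 of its 14. The GENCODE annotation has TRAJ58, TRAJ57 and TRAJ56 next to each other, at chr14:54157280-54157342, chr14:54158505-54158569 and chr14:54159263-54159325. Functional TRAV17 clonotypes reached 41 J genes, from TRAJ58 to TRAJ4, and functional TRAV19 clonotypes reached 34, from TRAJ58 to TRAJ2.

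**Figure D4:**
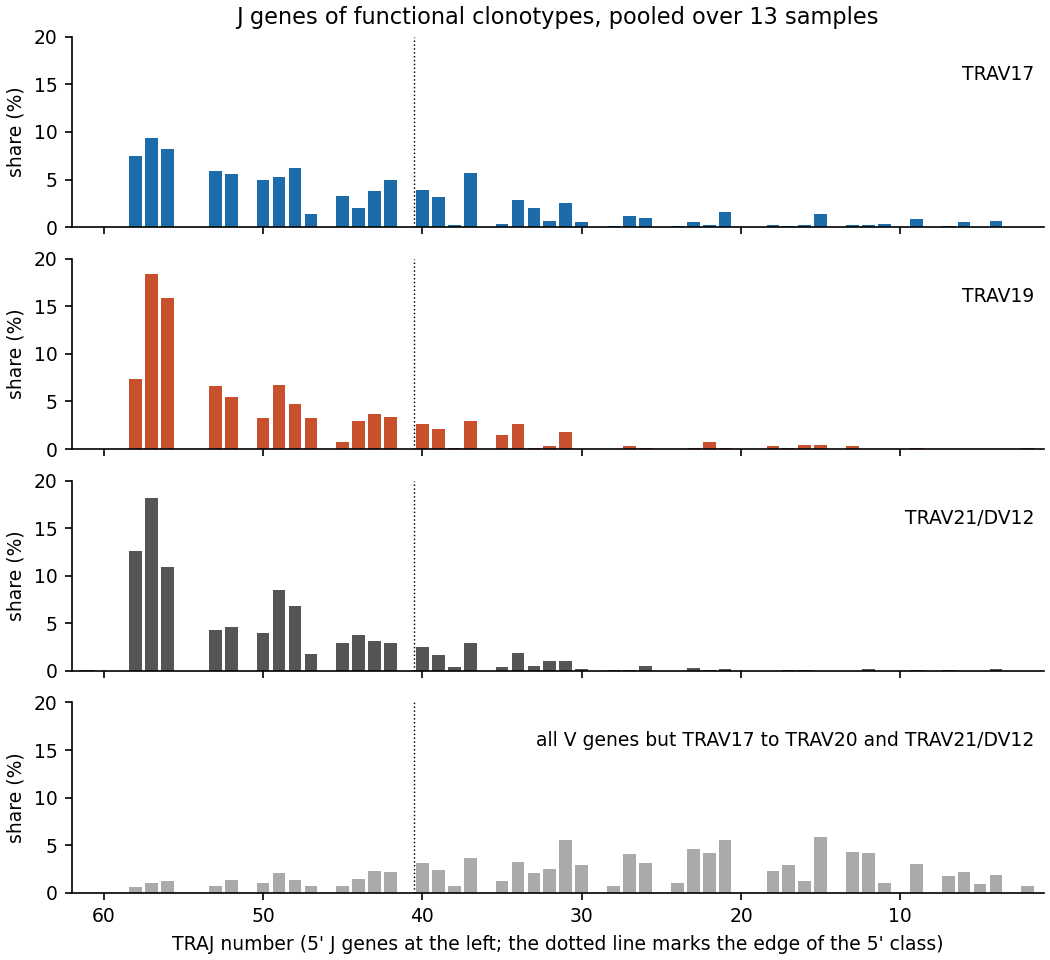
Share of functional clonotypes (%) by J gene, in the order of TRAJ numbers from the 5' end at the left, pooled over 13 samples for TRAV17, TRAV19, TRAV21/DV12 and all remaining V genes. TRAV19 peaks at TRAJ57 (18.4%) and TRAJ56 (15.9%), TRAV17 is lower and wider, and the remaining V genes lean to the right of the dotted line.

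Likeness of J use was measured by the total variation distance, 0 for the same shares and 1 for none in common, over 87 V genes with at least 100 functional clonotypes. TRAV21/DV12 was nearest to the pooled J use of the 4 genes (0.174), followed by TRAV13-4-DV7 (0.185) and TRAV14-3 (0.196). TRAV17 and TRAV19 lay 0.238 from each other.

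The CDR3 of TRAV17 and TRAV19 was longer than that of other V genes as a whole, and TRAV17 held fewer inserted bases. The mean length was 13.9 ± 0.189 amino acids (SD, n = 13) for TRAV17, with sample means from 13.7 to 14.3, and 13.9 ± 0.199 for TRAV19, from 13.6 to 14.2, against 13.5 for the rest in both. The differences, 0.429 ± 0.192 and 0.380 ± 0.210 amino acids, were positive in 13 of 13 samples (exact permutation test, adjusted p = 7.83e-04 for both over 93 V genes, of which 62.4% were called, 29% longer and 33.3% shorter). With the rest reweighted to the gene's J use, the differences were 0.109 for TRAV17 (adjusted p = 0.0553) and -0.0618 for TRAV19 (adjusted p = 0.275), and neither call held. Both genes had a shorter CDR3 than TRAV21/DV12, with differences of -0.604 ± 0.240 and -0.651 ± 0.257 amino acids in 13 of 13 samples (exact permutation, adjusted p = 0.00122 each), and their mutual difference was 0.0473 ± 0.219 (p = 0.445). Single clonotypes ran from 8 to 22 amino acids for TRAV17, 10 to 17 for TRAV19, 10 to 15 for TRAV18 and 13 to 16 for TRAV20.

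Inserted bases, those between the V and J ends as deposited, averaged 1.54 ± 0.318 (SD, n = 13) for TRAV17, from 1.07 to 2.28, against 2.16 for the rest. TRAV17 was lower in 12 of 13 samples, all but 7 months replicate 2, with a difference of -0.627 ± 0.326 bases (exact permutation test, adjusted p = 0.00568 over 93 V genes, of which 23.7% were called, 14% lower and 9.68% higher). The call held without each sample in turn (adjusted p 0.00757 to 0.0114) and with the rest reweighted to the gene's J use (-0.570, adjusted p = 0.00413). By these ends no base was inserted in 42.4% of functional TRAV17 clonotypes, 37.3% for TRAV19, 7 of 27 for TRAV18 and 8 of 14 for TRAV20, against 30.7% outside the 4. For TRAV19 the mean was 1.80 ± 0.423, from 1.33 to 2.76, and the difference of -0.359 ± 0.409 passed (adjusted p = 0.0444, lower in 10 of 13 samples). That call was lost without any 1 of 10 samples (adjusted p 0.0543 to 0.0840), that is, all but 1.5 months replicate 2, 3 months replicate 2 and 7 months replicate 1. It was also lost with counts as weights (-0.112, adjusted p = 0.649), with J use matched (-0.230, adjusted p = 0.209) and with the J variants merged (-0.344, adjusted p = 0.0568).

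The deposited V end ran past the GENCODE end in 34.3% of functional TRAV17, 30.5% of TRAV19 and 20.3% of TRAV21/DV12 clonotypes, against 27.4% outside the 4, so the inserted bases follow the authors' segment marks. In an alternative added after the data were seen, bases past the GENCODE end were counted as inserted. The difference from the rest was then -0.512 bases for TRAV17 (exact permutation test, adjusted p = 0.00239) and -0.55 for TRAV19 (adjusted p = 0.00691), with 34 V genes called in place of 22. The share with no inserted base became 30.9% for TRAV17 and 31.4% for TRAV19, against 24.3% outside the 4. TRAV17 minus TRAV21/DV12 was -0.436 ± 0.509 bases by the deposited ends (exact permutation, adjusted p = 0.0305 over 20 pairwise tests) and -0.0835 by the GENCODE ends, where the call was lost (adjusted p = 0.613). By the deposited ends it was also lost without 3 months replicate 3, 7 months replicate 1, 7 months replicate 3, 7 months replicate 4 or 7 months replicate 5 (exact permutation, adjusted p 0.0543 to 0.0610).

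Clone size was the mean log2 count of functional clonotypes, in which cell number and RNA per cell cannot be separated. It was 4.98 ± 0.749 (SD, n = 13) for TRAV17 and 5.12 ± 0.576 for TRAV19 on the log2 scale, against 4.86 for the rest in both. TRAV21/DV12 was higher than the rest by 0.43 ± 0.46 in 12 of 13 samples (exact permutation test, adjusted p = 0.00545), and TRAV19 minus TRAV21/DV12 was -0.17 ± 0.44 (adjusted p = 0.312), or -0.27 (0.0371) at a minimum of 10 counts. TRAV17 differed by 0.12 ± 0.39 (exact permutation test, adjusted p = 0.429, higher in 6 of 13 samples). TRAV19 differed by 0.26 ± 0.32, higher in 11 of 13 samples (adjusted p = 0.0447 over 93 V genes, of which 34.4% were called, 18.3% higher and 16.1% lower). The TRAV19 call was lost without any 1 of 10 samples (adjusted p 0.0505 to 0.0913), that is, all but 1.5 months replicate 1, 3 months replicate 2 and 3 months replicate 4, and the difference was 0.10 (adjusted p = 0.496) with the J variants merged and 0.26 (adjusted p = 0.0541) with the other V genes given equal weight. It was 0.49 (adjusted p = 0.00112) among TRAV19 clonotypes with at least 2 counts and 0.46 (adjusted p = 0.00103) without low copies between libraries. In TRAV17 the difference was 0.32 (adjusted p = 0.0208) among clonotypes with at least 2 counts and -0.02 with the variants merged. Clonotypes above 0.1% of functional counts numbered 9 for TRAV17, 14 for TRAV19, 1 for TRAV18 and 0 for TRAV20, against 1206 of 76912 outside the 4. A single count was the whole of 20.3% of functional TRAV17, 20.2% of TRAV19, 6 of 27 TRAV18 and 3 of 14 TRAV20 clonotypes, against 17.4% of those outside the 4.

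Counted per clonotype within a sample, TRAV19 CDR3 sequences recurred in other samples more often than those of other V genes as a whole. A CDR3 in common counts in every sample that holds it, so the values of the samples are not independent for this measure. Its tests, those between 2 genes too, treat them as independent, and their p-values are descriptive only. Of functional TRAV19 clonotypes, 48.4% ± 8.51 (SD, n = 13), from 36.6% to 60.8%, had an amino-acid CDR3 that another sample also held with TRAV19, against 36.2% for the rest. The difference was 12.2 ± 6.80 percentage points, positive in 13 of 13 samples and smallest at 7 months replicate 1 (exact permutation test, adjusted p = 6.88e-04 over 93 V genes, of which 83.9% were called, 16.1% higher and 67.7% lower). It was 9.55 points (adjusted p = 5.82e-04) without those 83 low copies of another library's clonotypes and their like in other V genes, and 10.9, 13.04 and 11.8 points without 1.5 months replicate 1, 3 months replicate 4 or 5 months replicate 1, the libraries that shared most. For TRAV17 the share was 39.8% ± 7.62, from 26.4% to 50%, and the difference of 3.52 ± 6.05 points did not pass (adjusted p = 0.0670, higher in 9 of 13 samples). It passed without 3 months replicate 3 (4.57 points, adjusted p = 0.0254), 7 months replicate 3 (4.74, 0.0224) or 7 months replicate 4 (4.73, 0.0119). It also passed with J use matched (3.63 points, adjusted p = 0.0489), with J variants merged (3.62, 0.0468) and with the other V genes given equal weight (12.9, 9.46e-04), where TRAV19 differed by 21.6 points (9.46e-04). The TRAV17 difference was smaller and did not pass by the same test in other settings. It was 0.855 points at a minimum of 2 counts (adjusted p = 0.685) and 1.30 at a minimum of 10 counts (0.512). With counts as weights it was 0.259 points (0.949), and without the low copies 2.65 (0.175). TRAV17 minus TRAV19 was -8.59 ± 9.83 points (exact permutation p = 0.0107, adjusted p = 0.0305 over 20 pairwise tests, lower in 11 of 13 samples). That call was lost without 1.5 months replicate 1 (-7.22, adjusted p = 0.0903), without 7 months replicate 3 (-6.25, 0.0608) and without the low copies (-6.85, 0.0653). TRAV17 minus TRAV21/DV12 was -5.90 ± 8.64 points (exact permutation, adjusted p = 0.0678) and passed with J variants merged (-5.88, 0.0429) and without 3 months replicate 2 (-7.45, 0.0140), 5 months replicate 2 (-7.02, 0.0459) or 7 months replicate 1 (-6.85, 0.0476). TRAV21/DV12 had 45.7% ± 8.81, and TRAV19 minus TRAV21/DV12 was 2.69 ± 11.5 points (exact permutation p = 0.423, adjusted p = 0.468), within the spread between samples. As distinct sequences within a V gene, 113 of 582 TRAV17 and 103 of 448 TRAV19 CDR3 were found in at least 2 samples, 2 of 24 for TRAV18 and 1 of 12 for TRAV20, against 10254 of 57862 outside the 4 (17.7%, with 19.4% for TRAV17 and 23.0% for TRAV19).

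**Figure D5:**
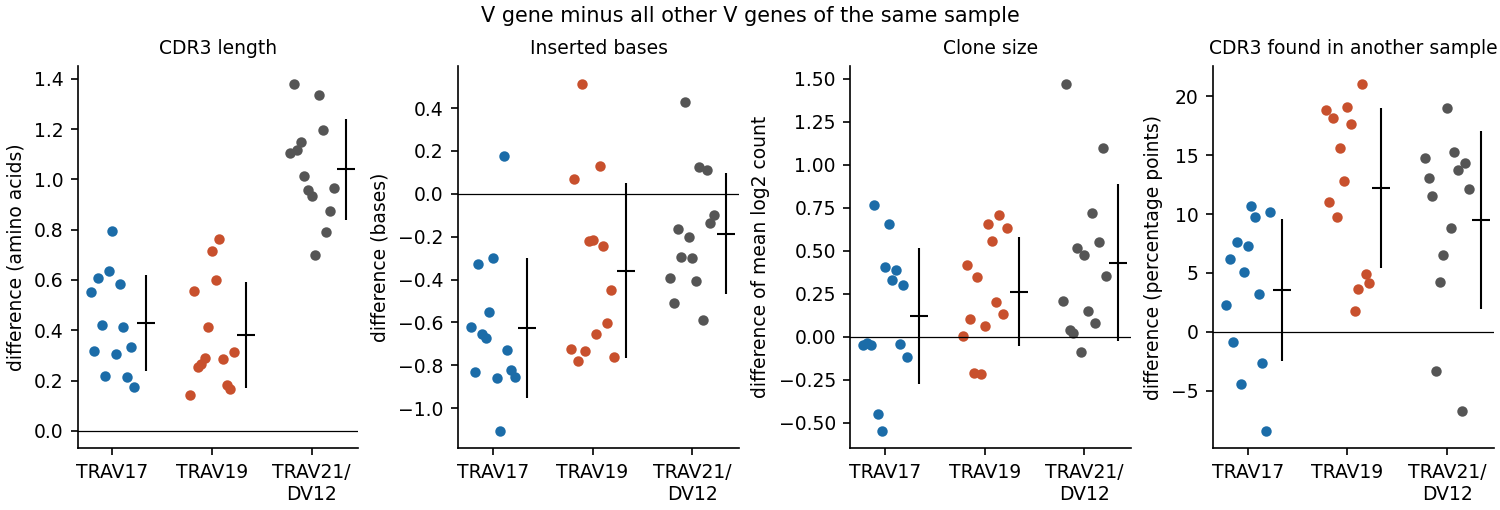
Difference of each V gene from all other V genes of the same sample in CDR3 length (amino acids), inserted bases, clone size (mean log2 count) and the share of clonotypes whose CDR3 another sample also held (percentage points), with 1 point per sample and a cross for the mean with SD. CDR3 length lies above 0 in every sample for the 3 genes, inserted bases below 0 in 12 of 13 samples for TRAV17, and shared CDR3 above 0 in 13 of 13 for TRAV19.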

How the data were processed

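The 13 libraries hold TCRα transcripts of rescued Treg cells. The authors amplified them by 5' RACE, assembled clonotypes with MiXCR and corrected them with VDJtools, and the non-functional clonotypes that they filtered out later are still in the deposited tables. GRCm38 is named in the submitters' processing notes. The deposited tables give each clonotype a count, and whether it counts reads or molecules is not given in the sources used here. A deposited fraction column holds the count divided by the sample's total and went unused. V and J names, CDR3 sequences and segment ends were used as the authors deposited them. The members, measures and lists were chosen with earlier results of these data known. The named clonotypes followed a rule, the functional clonotype with the highest share in any sample and the CDR3 in the most samples, and the 3 V genes most alike in J use were named.

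Python 3.11.15 (numpy 2.4.6, pandas 2.3.3, scipy 1.17.1) computed each measure per V gene and sample where at least 3 clonotypes were present, and its difference from all other TRAV clonotypes of that sample. V genes with at least 10 such samples were tested by the exact sign-flip permutation test over samples (8192 arrangements for 13 samples, two-sided), with Benjamini-Hochberg adjustment over all V genes tested and a threshold of 0.05. Matching of J use for the non-functional share, leaving out TRAJ25, TRAJ32 and TRAJ41, inserted bases counted from the GENCODE V end, merging of J variants and pairwise tests between TRAV17, TRAV19 and TRAV21/DV12 (adjusted over 20) were added after the data were seen. Trends used 100000 permutations. Clonotype numbers per V gene entered 1 model over all groups in edgeR (version 4.0.16, run in R 4.3.3) with TMM scaling, filterByExpr and the quasi-likelihood F test, with DESeq2 1.42.0 as an alternative. All 152 V and J names were found in GENCODE. The scripts were tested on simulated data. Counts per sample ran from 509818 to 936831, and these numbers set the counting error. Figures were drawn with matplotlib 3.10.9.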

Additional observations from a re-analysis of the deposited data

Results flagged for a closer look

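In the shared CDR3 of TRAV19 at 7 months, replicate 3 lay far from the other samples of its group, with 54.3% of functional clonotypes against 39.6% in the nearest other sample. The gap was 0.831 of the group's range, past the critical value of 0.71 for 5 samples. Over the 34 groups tested in this way, about 1 in 20 is called by chance.

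The clone size of TRAV17 minus that of all other V genes was negative in both samples at 1.5 months, with a mean of -0.0436 on the log2 scale, and positive in both samples at 5 months, with a mean of 0.529. The difference between these time points was not tested.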

How the results depend on the processing

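Among values of single genes under settings that kept all samples, 381 kept their direction and their side of the threshold, 8 passed it newly, 8 lost it and 24 changed sign. With 1 sample left out at a time, 632 stayed, 7 passed it newly, 27 lost it, 20 of these being the inserted bases and clone size of TRAV19 and the others differences between 2 genes, and 32 changed sign. Of all sign changes, 1 was in a value past the threshold, the CDR3 length of TRAV19 against the rest matched for its J use (-0.0618 amino acids), where the construction removes the part set by J use. The other changes were in values that did not pass under either setting. With the other V genes weighted equally, the non-functional share of TRAV19 differed by -1.20 points. With counts as weights, TRAV19 minus TRAV21/DV12 was 1.65 points for the 5' J share and 4.95e-04 inserted bases, and TRAV17 minus TRAV19 was -0.115 amino acids. TRAV17 minus TRAV19 was 0.0390 inserted bases from the GENCODE V end. The clone size difference of TRAV17 was -0.0189 with J variants merged and -0.0610 with the log2 of the mean count. For V use of TRAV17, the log2 fold change at 5 against 1.5 months was 0.52 with summed counts, 0.0030 at a minimum of 2 counts and 0.0312 with J variants merged, and at 7 against 1.5 months 0.23 with summed counts.

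Among correlations with months, the replicate block gave -0.137 (clonotype share of TRAV17), -0.571 (count share of TRAV18), 0.0897 and 0.123 (5' J share of TRAV17 and TRAV19). The log2 scale gave -0.0487 (clonotype share of TRAV20), -0.233 (count share of TRAV18) and -0.0088 (non-functional share of TRAV17). Spearman's rho was -0.136 for the count share of TRAV18 and -0.106 for the non-functional share of TRAV17, whose r was -0.194 at a minimum of 2 counts and -0.286 with J variants merged. A minimum of 2 counts gave 0.0450 for the 5' J share of TRAV19. With 1 sample left out at a time, r ran from -0.0539 to 0.291 (TRAV17), -0.343 to 0.0615 (TRAV18) and -0.201 to 0.151 (TRAV20) for the clonotype share, from -0.446 to 0.114 (TRAV18) and -0.303 to 0.0429 (TRAV20) for the count share, from -0.243 to 0.163 (TRAV17) and -0.258 to 0.0864 (TRAV19) for the 5' J share, and from -0.153 to 0.147 (TRAV17) and -0.142 to 0.110 (TRAV19) for the non-functional share. The log2 fold change ran from -0.156 to 0.0553 (TRAV17) and -0.437 to 0.0952 (TRAV19) at 5 against 1.5 months and from -0.124 to 0.0480 (TRAV17) and -0.284 to 0.195 (TRAV19) at 7 against 1.5, and the shared CDR3 of TRAV19 minus TRAV21/DV12 from -0.172 to 4.81 points.

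Among counts of V genes called, those for the 5' J share of non-functional clonotypes fell from 36 to 19 at a minimum of 10 counts, those for inserted bases fell from 22 to 10 with counts as weights and rose to 34 from the GENCODE V end, and those for clone size rose from 32 to 50 at a minimum of 10 counts and 54 with the log2 of the mean count. The trend of the non-functional share went from 1 V gene to 0 at a minimum of 2 counts and 0 with J variants merged. The cause of these shifts was not tested.

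For V gene use, where 0 were called, 3 against 1.5 months gave 2 at a minimum of 2 counts and 1 with only the groups compared, and 5 against 1.5 months gave 2 at a minimum of 2 counts, 2 with non-functional clonotypes kept, 2 without copies between libraries and 1 with only the groups compared. Replicate numbers were shared between time points, but same-numbered samples did not deviate together (mean correlation -0.0296 over 14 pairs, against 0.00920 over 46 other pairs), and with the number as a replicate block these comparisons gave 3 (3 against 1.5 months), 3 (5 against 1.5) and 1 (7 against 1.5) calls. TRAV17 and TRAV19 were not among the calls in any of these fits.

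Leaving out 1 sample at a time gave 0 to 1 calls for V use at 3 against 1.5 months (1 without 3 months replicate 3 or 7 months replicate 5), 0 to 2 at 5 against 1.5 months (2 without 3 months replicate 2 or 4, 1 without 5 months replicate 2 or 7 months replicate 2) and 0 to 1 at 7 against 1.5 months (1 without 7 months replicate 5). It gave 0 to 2 for the trend of the count share (2 without 5 months replicate 2), 0 to 1 for that of the 5' J share (1 without 7 months replicate 4), 0 to 1 for that of the non-functional share (0 without 1.5 months replicate 1) and 0 to 1 for the 5' J share of non-functional minus functional clonotypes (1 without 7 months replicate 1). Where this left a time point with 1 sample, edgeR took its spread from the other groups. TRAV17's 5' J share of non-functional clonotypes could be tested without only 3 of the samples, those that did not enter it. TRAV18 and TRAV20 had 29 and 26 clonotypes, too few for the tests against the other V genes.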

Other observations

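Between TRAV20 and the J genes, the files held 973 clonotypes of TRAV21/DV12, of which 821 used a 5' J gene, and 6 of TRAV23, found in 6 samples with 1 to 100 counts each. Of the 6 TRAV23 clonotypes 2 were functional and 4 used a 5' J gene. Among the non-functional clonotypes of TRAV17 the most used J genes were TRAJ52 (8 of 56), TRAJ53 (7) and TRAJ37 (6), and 5 used TRAJ32. Non-functional TRAV19 clonotypes used TRAJ32 (26 of 127), TRAJ56 (21) and TRAJ57 (14). The 12 non-functional TRAV20 clonotypes were spread over 11 J genes.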
